A study of Mus musculus with 30 samples.

Results

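Lung macro-metastases of 4T1-tdTomato cells were compared with mammary tumours of the same cells, both grown in NSG mice. The 10 libraries compared, 5 of each kind among the 30 of the series, were chosen by their labels alone, and 17774 expressed genes were tested. 4T1 cells come from a mammary carcinoma of a BALB/c mouse, and tdTomato is a red fluorescent protein by which they can be sorted. NSG mice lack T, B and NK cells.

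All hosts were female. For the 5 tumours, the mammary fat pad received 200000 cells, which were recovered at day 10. For the 5 macro-metastases, labelled as an endpoint stage, 500000 cells were injected into the tail vein and recovered from lung at day 19 (4 libraries) or day 20 (1 library). Both tissues were digested with enzymes, and single cells negative for DAPI and CD45 and positive for tdTomato were sorted. BALB/c mice, which have lymphocytes, gave 5 tumours (days 21 and 22) and 5 lung macro-metastases (days 21 and 23), used here for comparison, and 5 lung libraries of day 7 labelled DTC came from NSG mice. Site, route, number of cells and day changed together between the groups compared and cannot be told apart. The titles of all 5 NSG tumours carry the number 36, and those of the macro-metastases carry 98 (3 libraries) or 100 (2 libraries). Nothing in the labels says that the libraries came from separate animals, so p-values measure only the spread between these samples.

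Cells that reach the lung through a vein never invade out of a primary tumour, so this model covers the late steps of metastasis, lodging and outgrowth. Glucocorticoids are steroid hormones that bind a receptor encoded by Nr3c1, which then acts on target genes. They are known for restraining inflammation. Fas is a death receptor through which cytotoxic lymphocytes, absent from these hosts, can kill a cell.

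Total counts were 29832098 to 65430982 in tumours and 34582968 to 61037353 in macro-metastases, and correlations of log2 CPM, counts scaled to library size, within a group were 0.936 to 0.987. The first principal component (32.4% of the variance) separated the groups, whereas the next (25.7%) set apart tumour replicates 2 and 3 and macro-metastasis replicate 3. Those 3 libraries held RNA of epidermis and skeletal muscle. The 16 epidermis markers, a list chosen after the values were seen, summed to 152, 197 and 303 CPM in them and to 13.8 to 27.6 CPM in the other 7, and the 11 muscle markers tested summed to 196, 256 and 403 CPM against 22.1 to 48.5 CPM. A BALB/c tumour, replicate 4, stood higher still in epidermis markers, at 807 CPM. Where leaving out these 4 libraries together ended a gene's call, or moved the count of a gene list in NSG mice by more than 1.5 times, both values are given. Mitochondrial transcripts made up 1.34% to 1.92% of counts in tumours and 0.669% to 1.03% in macro-metastases. Log2 fold changes rose with the GC content of genes (rank correlation 0.313 across genes, which are not independent), and offsets per library for GC content and gene length removed that trend.

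Several marker lists of lung, stromal and blood cells were also higher in macro-metastases on a mean log2 scale. Mean log2 CPM was higher for lung epithelium markers by 2.58, endothelial by 2.15, macrophage by 1.67, neutrophil by 1.98 and red cell markers by 1.48 (exact permutation, 2-sided, p = 0.00794 for each, the smallest that 5 against 5 libraries allow, adjusted p = 0.0159). Levels stayed low: the surfactant gene Sftpc averaged 0.458 CPM in tumours and 9.73 in macro-metastases, the macrophage gene Chil3 0.0105 and 15.3, and the endothelial cadherin Cdh5 0.678 and 7.47. Of 15 lung epithelium markers 9 were called higher and 1 lower: Foxj1, a factor of ciliated cells, fell from 11.2 to 2.67 CPM, and the summed levels of the list overlapped (102 to 148 CPM in tumours, 141 to 178 CPM in macro-metastases). Surfactant genes Sftpb and Sftpd had no counts in any tumour. Summed levels of the 8 neutrophil markers tested, of 12 written, overlapped too (8.19 to 16.3 CPM in tumours, 7.71 to 26.0 CPM in macro-metastases). Endothelial sums lay close together (52.9 to 73.8 against 74.2 to 109 CPM). Summed levels of fibroblast and smooth muscle markers were 147 to 192 CPM in tumours and 332 to 461 CPM in macro-metastases, although their mean log2 difference of 1.02 did not pass (exact permutation, adjusted p = 0.0661). Pdgfra alone made up 103 to 153 CPM of these sums in tumours and 172 to 291 CPM in macro-metastases. Markers of T, B and NK cells summed to at most 2.71 CPM in any of the 10 libraries, whereas the carcinoma keratin Krt8 was abundant in all of them. In bulk RNA, fewer cells of a type and less RNA per cell cannot be told apart, here or in any result that follows.

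**Figure D1:**
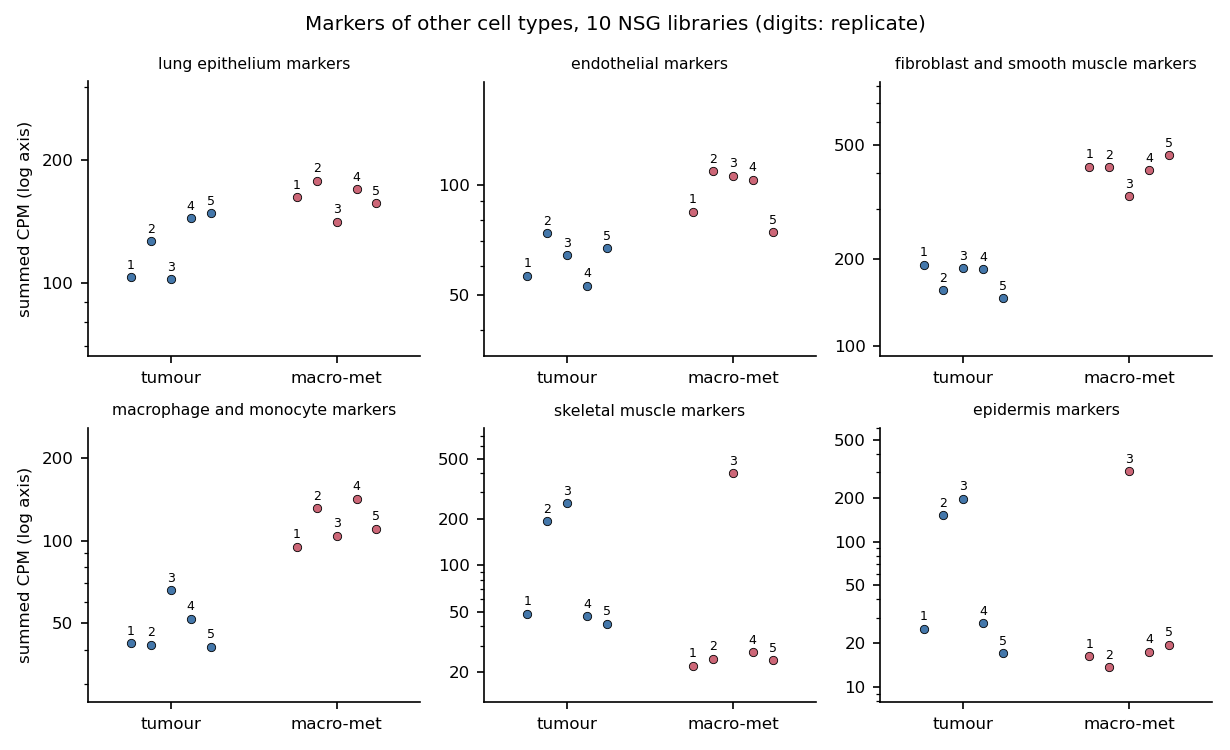
Summed CPM (log axis) of 6 lists of markers of other cell types in each of the 10 NSG libraries, with the replicate number above each point. Tumour replicates 2 and 3 and macro-metastasis replicate 3 stand apart in muscle (196, 256 and 403 CPM) and epidermis markers. Summed fibroblast markers, largely Pdgfra, separate the groups (147 to 192 against 332 to 461 CPM).

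A gene was called where the quasi-likelihood test of edgeR gave an adjusted p under 0.05 (Benjamini-Hochberg, over all genes tested). By this rule 5415 genes (30.5%) differed, of which 2996 (16.9%) were higher and 2419 (13.6%) lower in macro-metastases. Among the called genes, 401 were more than 4-fold higher and 322 more than 4-fold lower, and 4004 (22.5% of all tested) showed no overlap between the groups' libraries. Without the 4 libraries with epidermis and muscle RNA, 1882 genes were higher and 2308 lower, so that the higher share of calls went from 55.3% to 44.9%. That share also varied with the other settings, from 48.2% without tumour replicate 3 to 64.6% on log2(TPM + 1), and was 49.5% with DESeq2 size factors. Counts over gene lists are to be read against the 16.9% higher and 13.6% lower of all genes. Below, changes are log2 fold changes, macro-metastasis over tumour, with an approximate standard error (SE) and n = 5 libraries per group. The SE is the size of the change divided by the square root of its F statistic. Levels are CPM scaled by the trimmed mean of M values (TMM), given for replicates 1 to 5 of each group, or as group means.

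**Figure D2:**
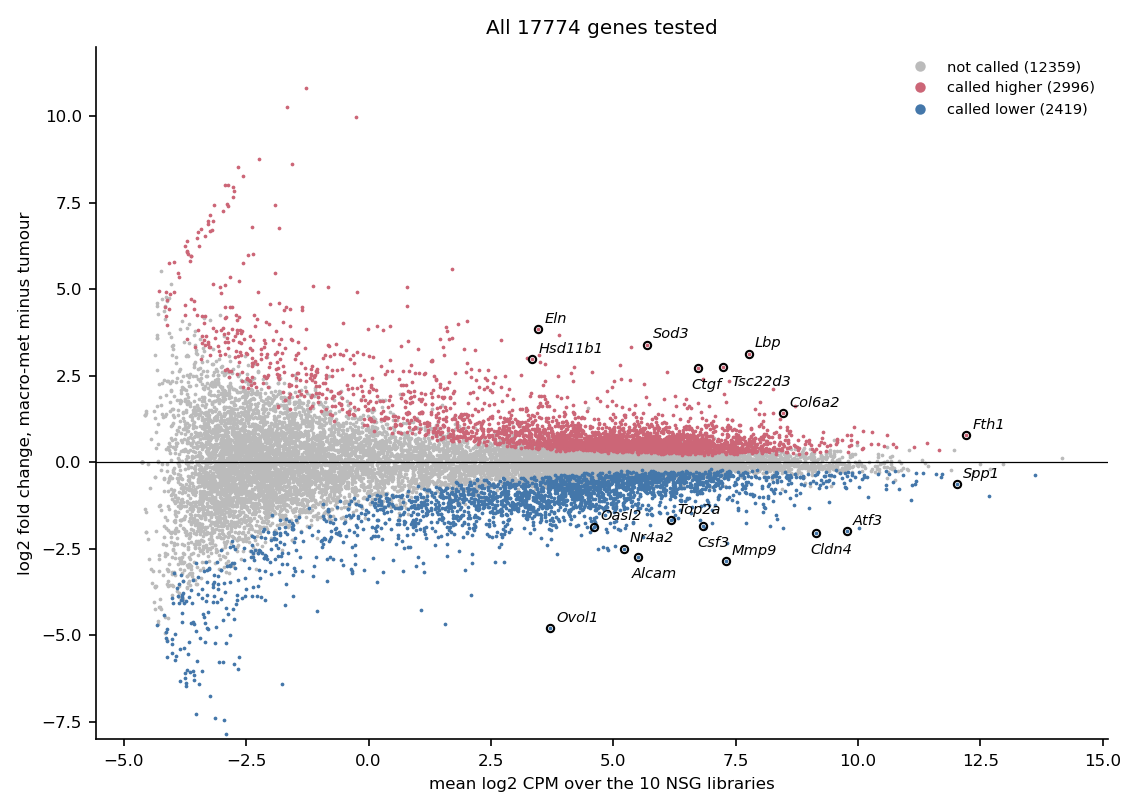
Log2 fold change (macro-metastasis minus tumour) against mean log2 CPM over the 10 NSG libraries for all genes tested, except 1 gene beyond the vertical range. Higher calls (2996, red) and lower calls (2419, blue) lie on both sides of 0, and circles mark genes described in the text, from Ovol1 at -4.80 to Eln at 3.85.

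Promoters are shown here for genes that fell in macro-metastases, from 3 groups in which several members share a short motif upstream. The epithelial gene Epcam (chr17:87635779-87635978, plus strand) and the tight junction gene Cldn4 (chr5:134946935-134947034, minus strand) hold CACCTG, an E-box bound by repressors of the Snail and Zeb families. Sequences are from RefSeq on GRCm38.p6, 5′ to 3′ on the gene's strand and ending 1 base before the gene's start, with matches on either strand in capitals.
Epcam: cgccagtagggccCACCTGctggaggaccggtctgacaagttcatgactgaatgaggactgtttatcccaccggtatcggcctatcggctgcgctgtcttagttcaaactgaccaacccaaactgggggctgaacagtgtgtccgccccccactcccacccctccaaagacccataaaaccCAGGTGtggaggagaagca
Cldn4: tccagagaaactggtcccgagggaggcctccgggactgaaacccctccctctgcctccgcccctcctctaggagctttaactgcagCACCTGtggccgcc
The matrix metalloproteinase genes Mmp13 (chr9:7272414-7272513), Mmp10 (chr9:7502242-7502341) and Mmp3 (chr9:7445722-7445821), all on the plus strand, hold TGACTCA, the site of AP-1 factors.
Mmp13: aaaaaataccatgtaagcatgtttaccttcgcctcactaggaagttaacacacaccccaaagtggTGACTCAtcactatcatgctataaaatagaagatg
Mmp10: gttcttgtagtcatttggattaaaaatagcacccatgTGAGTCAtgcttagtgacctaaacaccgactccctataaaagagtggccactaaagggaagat
Mmp3: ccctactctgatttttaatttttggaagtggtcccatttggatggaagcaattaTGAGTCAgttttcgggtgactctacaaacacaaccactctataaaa
The interferon-induced genes Oas1a (chr5:120907526-120907625, minus strand) and Bst2 (chr8:71537473-71537622, minus strand) hold GAAANNGAAA, the core of the interferon-stimulated response element, in overlapping copies.
Oas1a: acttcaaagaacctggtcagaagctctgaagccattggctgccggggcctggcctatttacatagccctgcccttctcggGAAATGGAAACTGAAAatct
Bst2: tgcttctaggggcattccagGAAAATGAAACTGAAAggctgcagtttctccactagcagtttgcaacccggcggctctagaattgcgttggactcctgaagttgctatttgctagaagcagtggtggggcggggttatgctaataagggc
Over the 250 bases upstream of the start, both strands searched, CACCTG was found in 7 of 15 epithelial junction genes with a RefSeq window (46.7%) and in 17.1% of all 27025 windows. For TGACTCA the shares were 4 of 13 metalloproteinase, inhibitor and crosslinker genes (30.8%) and 4.43%, and for GAAANNGAAA 9 of 24 type I interferon response genes (37.5%) and 3.04%. Of 3 other motifs searched, AGAACA, which matches part of a glucocorticoid response element, was in 3 of 22 glucocorticoid-induced genes (13.6%), between its shares of all windows (16.2%) and of windows of the genes tested (11.3%). TGACGT, the cAMP response core, was in 6 of 22 immediate early genes (27.3% against 6.56%), and CACGTG, the E-box of clock factors, in 5 of 15 clock genes (33.3% against 6.05%). Among windows of the genes tested the shares were 15.8% for CACCTG, 3.61% for TGACTCA, 2.69% for GAAANNGAAA, 9.55% for TGACGT and 7.99% for CACGTG. Among epithelial junction genes with CACCTG 5 of 7 were called lower, against 11 of all 15 with a window. The same counts were 3 of 4 against 5 of 13 for TGACTCA, 4 of 9 against 10 of 24 for GAAANNGAAA and 4 of 6 against 12 of 22 for TGACGT. Called higher were 5 of 5 clock genes with CACGTG, against 7 of 15. For glucocorticoid-induced genes with AGAACA they were 2 of 3, against 10 of 22. A match is a description of the sequence and does not show binding.

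Glucocorticoid-induced genes were the group nearest to the subject of the study, and 3 of the best known, Tsc22d3, Per1 and Fkbp5, were higher in macro-metastases. Tsc22d3, the glucocorticoid-induced leucine zipper (chromosome X, 140539528 to 140600659), stood at 65.3, 57.8, 58.6, 56.4 and 58.4 CPM in tumours and at 358, 295, 619, 414 and 302 CPM in macro-metastases. Every macro-metastasis exceeded every tumour by more than 4-fold, and the tumours lay close together. The log2 fold change was 2.75 ± 0.22 (edgeR adjusted p = 7.42e-10). Per1, a clock repressor that glucocorticoids also induce, was at 56.3, 51.6, 60.4, 68.0 and 69.5 CPM against 137, 112, 351, 213 and 187 CPM (1.71 ± 0.23, adjusted p = 2.59e-06). Here too the groups did not overlap, and macro-metastasis replicate 3 was the highest for both genes. Fkbp5, a co-chaperone that lowers the receptor's affinity for hormone, rose from 189, 152, 168, 182 and 190.1 CPM to 432, 369.7, 376, 433 and 403 CPM (1.19 ± 0.12, adjusted p = 3.14e-08). Its macro-metastasis libraries were nearly level.

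Of 28 members tested, 11 were called higher (39.3%, against 16.9% of all genes) and 4 lower (14.3%, against 13.6%). The median was 0.73 against 0.02 over all genes. Further rises were those of the transcription factors Cebpd (1.93 ± 0.38) and Klf13 (0.81 ± 0.15), the phosphatidate phosphatase Lpin1 (0.86 ± 0.17) and the iron-binding lipocalin Lcn2 (1.03 ± 0.24). By contrast Anxa1, annexin A1, a mediator of glucocorticoid action on inflammation, fell (-0.73 ± 0.14), as did Tnfaip3, the A20 brake on NF-kB, from 599, 395, 619, 736 and 648 CPM to 189, 210.1, 302, 185 and 84.5 CPM (-1.63 ± 0.32, adjusted p = 0.000379). The share called lower was thus near that of all genes. Anxa1 and Tnfaip3 did not overlap between groups. In all, 11 of the 28 members were called without overlap, against 22.5% of all genes.

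Enzymes that set the local level of active hormone changed as well. Hsd11b1 (chromosome 1, 193221634 to 193264075), which regenerates active corticosterone inside the cell, was at 3.94, 3.56, 4.24, 3.47 and 2.83 CPM in tumours and 26.6, 24.6, 34.1, 27.0 and 29.7 CPM in macro-metastases (2.98 ± 0.41, adjusted p = 4.49e-06). All macro-metastases stood far above all tumours. Fibroblast markers rose in the same libraries (Dcn from 16.8 to 88.6 CPM, Pdgfrb from 8.11 to 41.5 CPM). Their part in Hsd11b1, or in the rises of Sod3, C4b and Lbp given below, was not tested. H6pd, which supplies the reducing equivalents Hsd11b1 uses, rose from a mean of 33.1 to 58.8 CPM, with overlap between the groups. Hsd11b2, the enzyme that inactivates the hormone, fell from 12.6 ± 1.13 to 6.89 ± 1.40 CPM (SD, n = 5). The receptor gene Nr3c1 was at 21.6, 21.2, 16.9, 21.0 and 19.2 CPM and 14.5, 14.3, 16.7, 11.1 and 18.1 CPM. The groups overlapped, and the difference was not called (-0.42 ± 0.21, adjusted p = 0.141). In a fit of only these 10 libraries Nr3c1 was called lower (-0.47, edgeR adjusted p = 0.0176). With GC and length offsets its change was -0.06 and not called (edgeR adjusted p = 0.811). Without the 4 libraries it was -0.57, not called either (edgeR adjusted p = 0.136). Hsp90aa1, the inducible HSP90 that holds the receptor ready for hormone, was lower (-1.38 ± 0.38). In all, 5 of 17 receptor, chaperone and steroid enzyme genes were higher and 6 lower, or 3 and 3 without the 4 libraries.

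**Figure D3:**
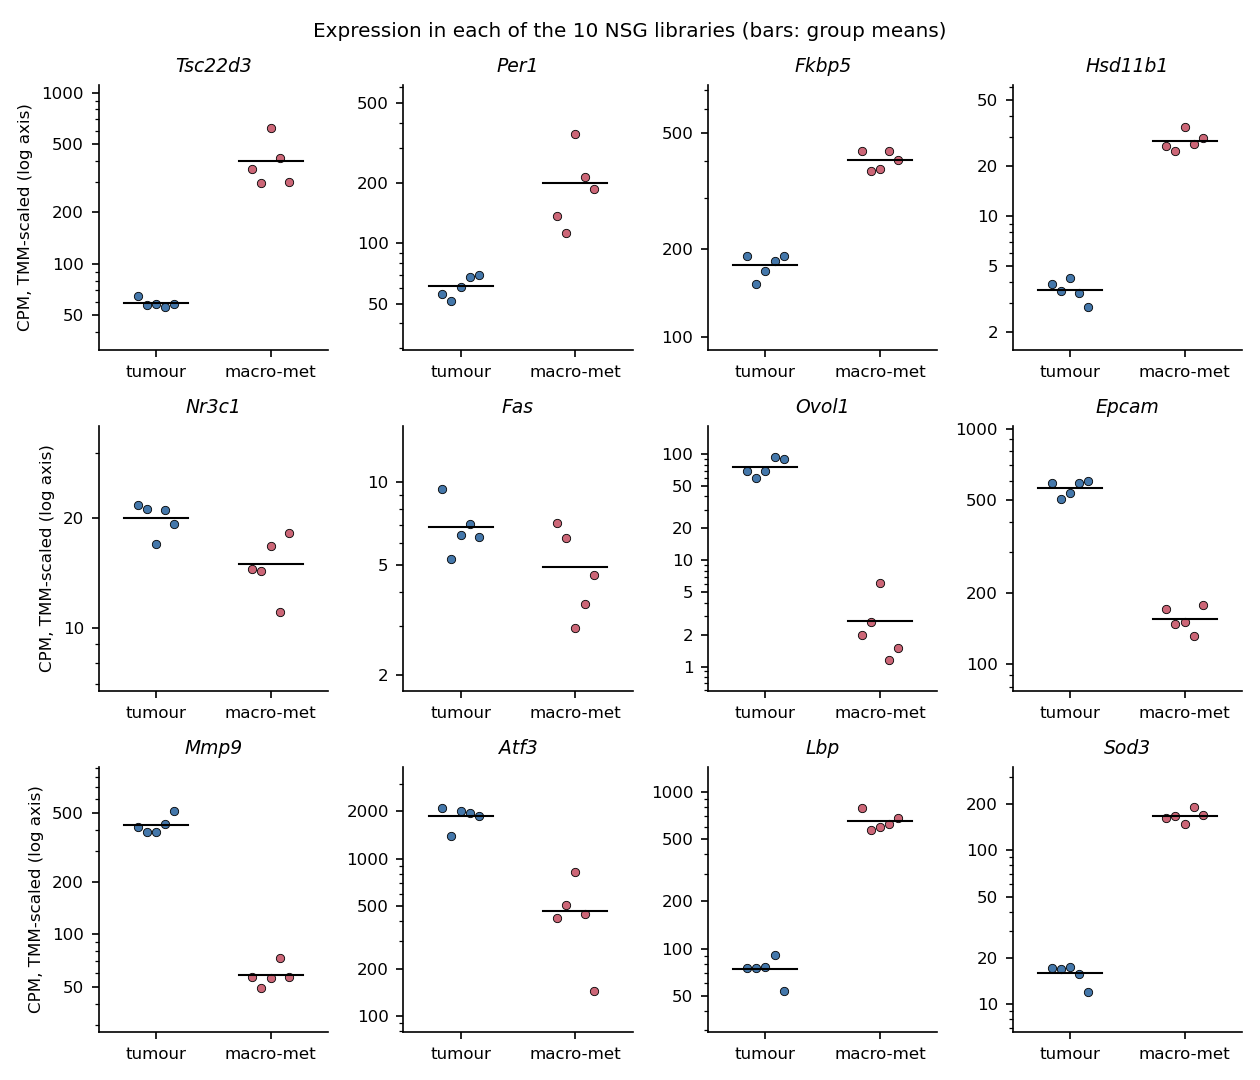
CPM on a log axis in each of the 5 tumour (blue) and 5 macro-metastasis (red) libraries from NSG mice for 12 genes, with black bars at group means. Tsc22d3, Per1, Fkbp5, Hsd11b1, Lbp and Sod3 separate upward, Ovol1, Epcam, Mmp9 and Atf3 downward, and Nr3c1 and Fas overlap.

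Fas, the death receptor named in the study's title, was not called. It was low in all libraries, at 9.498, 5.25, 6.42, 7.04 and 6.35 CPM in tumours and 7.13, 6.30, 2.95, 3.61 and 4.61 CPM in macro-metastases. The groups overlapped, with a log2 fold change of -0.49 ± 0.22 (adjusted p = 0.1003). Leaving out macro-metastasis replicate 1 gave -0.70 (edgeR adjusted p = 0.0238). GC and length offsets gave -0.22 (edgeR adjusted p = 0.469), and leaving out the 4 libraries gave -0.55 (edgeR adjusted p = 0.123), neither called. In BALB/c mice, where the same change was -0.63 ± 0.22 (adjusted p = 0.0247), the difference from the NSG change was 0.14 ± 0.32 (adjusted p = 0.847). Of 20 genes of death receptor signalling 4 were higher (20.0%, against 16.9% of all genes) and 2 lower (10.0%, against 13.6%), or 2 and 3 without the 4 libraries. Tnfrsf1a, the main TNF receptor, rose from 105 to 166 CPM, and Xiap, which blocks effector caspases, fell from 33.3 to 14.2 CPM. Among 15 BCL2 family genes 4 were higher (26.7%, against 16.9% of all genes) and 1 lower (6.67%, against 13.6%), or 2 and 1 without the 4 libraries. Bcl2l1, which encodes the survival protein BCL-XL, was at 59.7, 64.8, 71.5, 73.0 and 71.5 CPM in tumours and 152, 141, 219, 235 and 181 CPM in macro-metastases (1.45 ± 0.14, adjusted p = 1.36e-08). No macro-metastasis was as low as any tumour.

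Epithelial junction and polarity genes fell as a group: 19 of 24 were lower and none higher, with a median of -0.91. Without the 4 libraries 21 were lower, and with the GC and length offsets 22 were. Ovol1 (chromosome 19, 5549136 to 5560646), a zinc-finger factor that maintains the epithelial state, had one of the largest falls. It went from 69.5, 59.4, 69.7, 93.6 and 89.3 CPM to 1.97, 2.62, 6.16, 1.16 and 1.49 CPM (-4.80 ± 0.46, adjusted p = 1.71e-08), and was -5.58 without the 4 libraries. The highest macro-metastasis was replicate 3, which carried epidermal RNA. Cldn4, a tight junction claudin, was at 1194, 892, 1048, 1393 and 1281 CPM against 327, 284, 284, 294 and 220.2 CPM (-2.04 ± 0.24, adjusted p = 4.67e-07). Epcam, the epithelial adhesion molecule, was at 586, 502, 534, 588 and 598 CPM against 171, 147, 150.5, 132 and 179 CPM (-1.85 ± 0.24, adjusted p = 1.75e-06). Neither gene overlapped between groups. Others called were Rab25 (-1.92 ± 0.29), a GTPase of apical recycling, the desmosomal cadherin Dsg2 (-1.80 ± 0.25), the tight junction gene Ocln (-0.93 ± 0.14) and the membrane protease St14 (-1.01 ± 0.17).

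Of 14 genes of keratins, the intermediate filaments of epithelia, 7 were lower and none higher. Krt8 was at 3818, 3985, 3874, 3585 and 3906 CPM and 2850.0, 2779, 2759, 3103 and 2741 CPM, a modest but separated difference (-0.43 ± 0.14, adjusted p = 0.0173) whose adjusted p was 0.0521 without the 4 libraries. Its partner Krt18 was lower by a similar amount (-0.54 ± 0.12). Larger falls were those of Krt7 (-1.33 ± 0.14), Krt19 (-1.06 ± 0.17) and the basal keratin Krt14 (-1.75 ± 0.28). Of the lung epithelium markers 9 of 15 were called higher in the same macro-metastases and 1, Foxj1, lower.

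Lama3 (-1.73 ± 0.21) and Lamb3 (-1.64 ± 0.24), laminin chains of the epithelial basement membrane, fell. Of 20 integrin and adhesion genes 7 were lower and 1 higher. Alcam, an immunoglobulin-type adhesion molecule, was at 129.7, 113, 99.5, 123 and 132 CPM against 18.4, 16.6, 12.4, 14.3 and 27.8 CPM (-2.74 ± 0.29, adjusted p = 1.22e-07), without overlap. Itga2, the collagen-binding integrin chain, went from 24.7 to 5.43 CPM, and Cd24a from 408 to 177 CPM. Fermt1, kindlin-1, which activates integrins, fell (-2.497 ± 0.23), as did Has2, a hyaluronan synthase (-2.45 ± 0.40).

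Of 21 metalloproteinases, inhibitors and crosslinkers 8 were lower (38.1%, against 13.6% of all genes) and 3 higher (14.3%, against 16.9%). Mmp9 (chromosome 2, 164940780 to 164955850), a gelatinase, was at 415, 385, 389.7, 432 and 512 CPM in tumours and 57.0, 49.1, 56.2, 73.4 and 57.0 CPM in macro-metastases (-2.87 ± 0.26, adjusted p = 5.75e-09). The lowest tumour was more than 5 times the highest macro-metastasis. Mmp13, a collagenase, was at 20.6, 7.35, 19.1, 17.9 and 17.7 CPM and 1.36, 1.34, 0.75, 0.941 and 1.44 CPM (-3.82 ± 0.41, adjusted p = 8.09e-08). Also lower were the stromelysins Mmp10 (-1.71 ± 0.36) and Mmp3 (-1.30 ± 0.28), whose promoters share the AP-1 site shown above, the membrane-type protease Mmp14 (-0.49 ± 0.11) and the urokinase Plau (-0.98 ± 0.18). Timp2, an inhibitor, rose (0.79 ± 0.12).

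The 25 collagen and matrix genes were split, 7 higher and 7 lower. Tnc, tenascin-C, fell from 78.3, 62.4, 59.8, 79.0 and 107 CPM to 13.6, 16.1, 19.1, 9.76 and 13.1 CPM (-2.43 ± 0.22, adjusted p = 5.11e-09), with every macro-metastasis below every tumour. Chains of collagen VI rose: Col6a1 (1.03 ± 0.15), Col6a3 (2.35 ± 0.48) and Col6a2, which was at 240.4, 217, 208, 212 and 201 CPM against 626, 659, 558, 564 and 494 CPM (1.43 ± 0.19, adjusted p = 1.46e-06). Among the 20 largest rises without overlap at a mean log2 CPM of at least 3, marker genes left out, were elastin, Eln (3.85 ± 0.71, and 4.70 without the 4 libraries), fibulin-1, Fbln1 (2.497 ± 0.20), thrombospondin-2, Thbs2 (2.81 ± 0.35), the proteoglycan Prelp (2.62 ± 0.42) and the membrane protein Mxra8 (2.58 ± 0.52). Stromal cells make these products as well, and fibroblast markers moved with them: Dcn rose from 16.8 to 88.6 CPM and Pdgfrb from 8.11 to 41.5 CPM, 5 of 14 markers were called higher and none lower (7 and 1 without the 4 libraries). Their part in the matrix genes was not tested.

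Of 20 targets of the co-activator YAP, which responds to cell shape and stiffness, 10 were higher and 3 lower, or 8 and 3 without the 4 libraries. Ctgf, a matricellular growth factor and standard YAP target, was at 34.1, 47.7, 34.7, 44.4 and 49.6 CPM and 231, 186, 378, 254 and 334 CPM (2.71 ± 0.31, adjusted p = 3.39e-07). Its groups were separated by a wide gap. Amotl2 (1.06 ± 0.18), a feedback inhibitor of YAP, and Crim1 (1.004 ± 0.14) rose with it, whereas Nt5e, the ectonucleotidase CD73, fell (-0.89 ± 0.15). Cyr61, the closest relative of Ctgf, overlapped between groups (446 ± 79.4 and 359.5 ± 62.0 CPM, SD, n = 5) and was not called (-0.31 ± 0.22, edgeR adjusted p = 0.319). Tgfbr2, a TGF-beta receptor, rose from 176 to 363 CPM. Of 19 mesenchymal transition genes 4 were higher (21.1%, against 16.9% of all genes) and 2 lower (10.5%, against 13.6%).

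**Figure D4:**
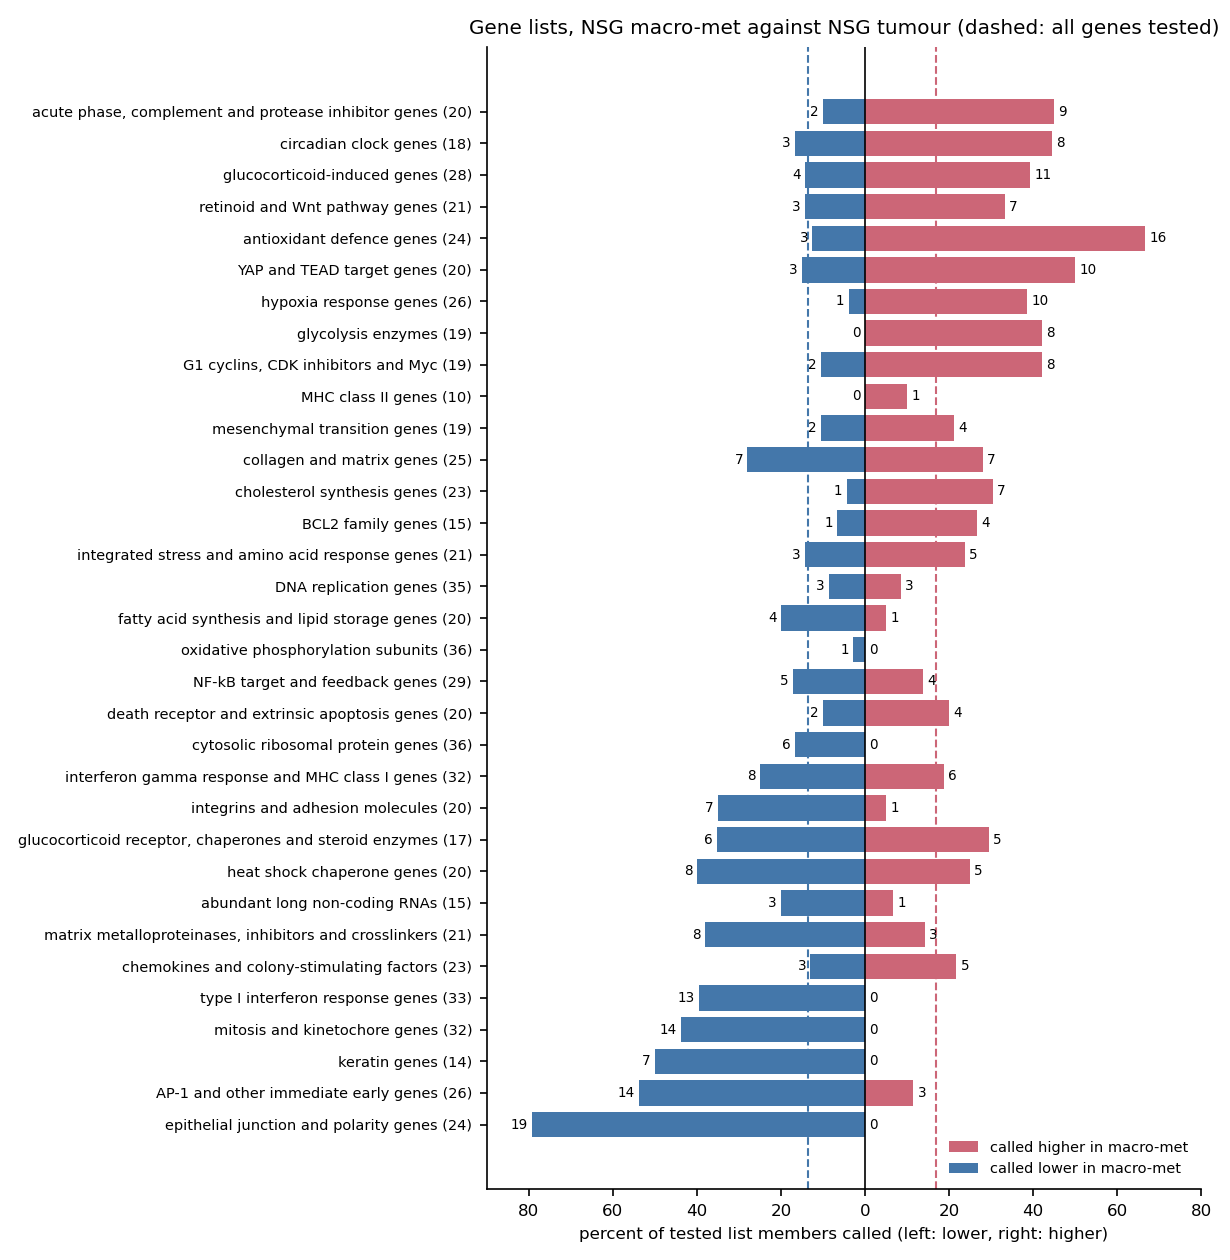
Percent of the tested members of each of 33 gene lists called lower (blue, left) or higher (red, right) in NSG macro-metastases, with the number called at each bar's end, list sizes in brackets and lists ordered by median log2 fold change. Dashed lines mark all genes tested (13.6% lower, 16.9% higher), which epithelial junction genes (19 of 24 lower) and antioxidant genes (16 of 24 higher) pass by the most.

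Immediate early genes, transcription factors and feedback regulators switched on within minutes of a stimulus, were lower: 14 of 26 fell and 3 rose, with a median of -0.69. The 3 rises were not called without the 4 libraries or with GC and length offsets. Atf3, a stress-induced factor, was at 2110.0, 1406, 2021, 1960.0 and 1884 CPM in tumours and 419, 512, 823, 447 and 144 CPM in macro-metastases (-2.001 ± 0.38, adjusted p = 0.00022). Replicate 5 was the lowest macro-metastasis and replicate 3 the highest, and all were below the tumours. Nr4a2, an orphan nuclear receptor, was at 91.4, 70.2, 86.5, 93.0 and 116 CPM against 11.8, 15.8, 26.0, 17.8 and 9.60 CPM (-2.49 ± 0.37, adjusted p = 1.51e-05). Its relatives Nr4a1 (-1.89 ± 0.40) and Nr4a3 (-4.67 ± 0.79) were lower too, as were Fosb (-1.89 ± 0.37), an AP-1 subunit, Egr3 (-1.84 ± 0.40) and the phosphatase Dusp2 (-4.26 ± 0.51, and -4.99 without the 4 libraries). Tiparp, a mono-ADP-ribosyltransferase, and Skil, which restrains SMAD factors, were among the 20 largest falls without overlap at a mean log2 CPM of at least 3 (-2.52 ± 0.30 and -2.15 ± 0.32). Both tissues passed through the same digestion, and handling could not be told apart from site.

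Inflammatory mediators went both ways. Ptgs2, cyclooxygenase-2, fell from 446, 272, 338, 382 and 371 CPM to 57.8, 92.7, 82.5, 73.5 and 55.3 CPM (-2.32 ± 0.37, adjusted p = 2.97e-05). Csf3, which encodes G-CSF, the growth factor of neutrophils, was at 196, 182, 241, 238 and 247 CPM and 48.0, 59.0, 69.3, 80.4 and 48.7 CPM (-1.85 ± 0.27, adjusted p = 8.67e-06). In each case the highest macro-metastasis was below the lowest tumour. Ccl2, the monocyte chemoattractant, was instead at 9.92, 4.92, 9.98, 8.75 and 8.59 CPM and 17.5, 30.0, 31.6, 54.6 and 19.4 CPM (1.85 ± 0.42, adjusted p = 0.0014), and its relative Ccl7 rose from 1.42 to 8.55 CPM. The membrane-bound chemokine Cxcl16 fell (-1.55 ± 0.18). In total 5 of 23 chemokine and colony-stimulating factor genes were higher (21.7%) and 3 lower (13.0%), or 5 and 6 without the 4 libraries. Of 29 NF-kB targets 4 were higher (13.8%) and 5 lower (17.2%), or 2 and 7 without the 4 libraries. Both lists were near the shares of all genes, 16.9% higher and 13.6% lower. Higher NF-kB targets included the adhesion molecule Icam1 (1.23 ± 0.24), and lower ones the subunit Rel (-2.08 ± 0.36) and the inhibitor Nfkbie (-1.07 ± 0.17). Macrophage and endothelial markers, which were higher in the same libraries (95.1 to 142 CPM against 41.2 to 66.1 CPM for macrophages), can mark cells that make Ccl2, Ccl7 and Icam1, and their part was not tested.

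Of 20 acute phase, complement and protease inhibitor genes 9 were higher and 2 lower, with a median of 0.95. Lbp, the lipopolysaccharide-binding protein, was at 74.9, 75.5, 76.0, 91.1 and 53.3 CPM in tumours and 796, 570.2, 600.1, 624 and 684 CPM in macro-metastases (3.14 ± 0.27, adjusted p = 4.19e-09). C4b, complement component 4, was at 12.0, 10.5, 14.7, 16.1 and 11.8 CPM and 113, 107, 148, 151 and 136 CPM (3.33 ± 0.36, adjusted p = 1.2e-07). Neither came near to overlapping. Saa3, a serum amyloid A, was at 2.12, 0.831, 1.62, 2.61 and 1.40 CPM and 9.14, 9.58, 9.81, 46.5 and 7.47 CPM (3.24 ± 0.59, adjusted p = 0.000174). Replicate 4 held most of that signal, and without it the change was 2.34 (edgeR adjusted p = 0.00165). The coagulation cofactor F5 rose (3.11 ± 0.55) and tissue factor, F3, which starts coagulation, fell (-1.90 ± 0.23). Masp1, a protease of the lectin pathway of complement, rose from 35.2 to 124 CPM. Selp, P-selectin, was another large rise (2.75 ± 0.42), in libraries where endothelial markers rose as well.

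Of 33 type I interferon response genes 13 were lower and none higher, with a median of -0.48. Oasl2, an antiviral oligoadenylate synthetase-like gene, was at 54.1, 46.6, 49.2, 50.4 and 43.2 CPM and 14.8, 20.8, 5.28, 15.7 and 10.7 CPM (-1.86 ± 0.28, adjusted p = 1.82e-05). The groups were separated, and macro-metastasis replicate 3 was the lowest. Related sensors fell too, Oas2 (-3.18 ± 0.45) and Oas1a (-1.04 ± 0.17), as did Ifi44 (-2.92 ± 0.55), the ISG15 protease Usp18 (-1.67 ± 0.25), the kinase PKR, Eif2ak2 (-1.69 ± 0.35), and tetherin, Bst2 (-0.73 ± 0.19). Oas1a and Bst2 carry the response element shown above.

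The interferon gamma and MHC class I list was mixed, with 6 of 32 higher (18.8%, against 16.9% of all genes) and 8 lower (25.0%, against 13.6%). It gave 3 higher and 9 lower without the 4 libraries. Its regulators fell: Socs1, a feedback inhibitor of cytokine signalling, from 28.4 to 8.86 CPM, and Irf1, a transcription factor, from 584 to 285 CPM, with overlap in Irf1. The 6 higher genes include H2-D1, H2-K1 and Tap1 of antigen presentation. H2-D1, a classical class I heavy chain, was at 2364, 2159, 2238, 2247 and 2251 CPM and 3250.0, 3145, 3553, 3551 and 3198 CPM (0.57 ± 0.13, adjusted p = 0.00116). H2-K1 rose by a like amount (0.52 ± 0.12). Tap1, which pumps peptides toward class I molecules, was at 67.1, 58.8, 58.9, 63.7 and 63.4 CPM and 109, 102, 149.6, 138 and 101 CPM (0.94 ± 0.20, adjusted p = 0.000754). All 3 genes separated the groups, and class I genes are paralogs that can share reads. Of 10 MHC class II genes 1 was called, and none without the 4 libraries.

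Antioxidant defence was the list with the largest share of rises, 16 of 24 against 3 falls (median 0.54), or 12 against 3 without the 4 libraries. Sod3, the extracellular superoxide dismutase, was at 17.2, 17.0, 17.5, 15.7 and 12.1 CPM in tumours and 162, 168, 149, 191 and 168 CPM in macro-metastases (3.40 ± 0.32, adjusted p = 1.4e-08). A wide gap separated the groups. Hmox1, haem oxygenase, was at 20.3, 9.94, 16.1, 14.4 and 17.4 CPM and 55.7, 68.2, 58.6, 127 and 41.0 CPM (2.16 ± 0.21, adjusted p = 1.71e-08), with replicate 4 the highest. That library also held the most red cell RNA, 78.1 CPM against 35.3 at the lowest, and its part in Hmox1 was not tested. Selenbp1, a selenium-binding protein (3.53 ± 0.36), the glutathione transferase Gstm1 (2.24 ± 0.23) and glutathione reductase, Gsr (0.87 ± 0.13), rose, while the regulator gene Nfe2l2, encoding NRF2, fell (-0.64 ± 0.13). Fth1, the ferritin heavy chain that stores iron, was at 4062, 3204, 4052, 3567 and 3452 CPM and 5090.0, 5268, 7507, 7627 and 5884 CPM (0.77 ± 0.13, adjusted p = 3.26e-05). Per length it was the most abundant transcript in macro-metastases, at 19838 TPM in the authors' table against 11068 in tumours. Spp1, the secreted phosphoprotein osteopontin, another abundant transcript, went from 6196, 4840.0, 5695, 4859 and 4526 CPM to 3471, 3603, 2741, 2974 and 4042 CPM (-0.63 ± 0.18, adjusted p = 0.00959), a change of -0.30 and no call with GC and length offsets.

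Of 26 hypoxia response genes 10 were higher and 1 lower, or 9 and 1 without the 4 libraries. Adm, adrenomedullin, was at 6.14, 3.29, 3.66, 3.49 and 3.56 CPM and 10.4, 12.6, 46.0, 34.9 and 11.0 CPM (2.51 ± 0.38, adjusted p = 1.25e-05), or 1.89 without the 4 libraries. Replicates 3 and 4 stood well above the other macro-metastases, which were themselves above all tumours. The mitophagy receptor Bnip3 (1.55 ± 0.30) and the oxygen sensors Egln3 (0.93 ± 0.18) and Egln1 (0.96 ± 0.18) rose as well, each highest in replicate 4. Of 19 glycolysis genes 8 were higher, including the enolase Eno2 (1.91 ± 0.35) and the aldolase Aldoc (1.35 ± 0.19), but 4 with the offsets and 3 without the 4 libraries. Of the oxidative phosphorylation subunits 1 of 36 was called lower, although offsets gave 3 higher and 12 lower. Ribosomal protein genes were lower in 6 of 36 (16.7%, near the 13.6% of all genes), or 18 with offsets. In cholesterol synthesis 7 of 23 rose, among them Hsd17b7 (1.30 ± 0.21), and 1 fell, but only 2 rose without the 4 libraries. Fatty acid genes gave 1 higher (5.0%) and 4 lower (20.0%) of 20, or 2 and 4 without the 4 libraries. Among 20 heat shock chaperones 5 were higher and 8 lower (2 and 8 without the 4 libraries), with Hsph1, an HSP110 co-chaperone, falling from 79.7 to 24.1 CPM.

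Of 32 mitosis and kinetochore genes 14 were lower and none higher, with a median of -0.57. Top2a, the topoisomerase that separates replicated chromosomes, was at 141, 141, 93.9, 141 and 139.7 CPM and 40.7, 44.4, 29.4, 34.7 and 57.8 CPM (-1.66 ± 0.34, adjusted p = 0.000589). Bub1, a spindle checkpoint kinase, was at 19.8, 9.47, 12.5, 12.9 and 12.4 CPM and 3.74, 4.69, 2.18, 2.79 and 5.47 CPM (-1.83 ± 0.40, adjusted p = 0.00105). Every macro-metastasis was below every tumour for both. The kinetochore motor Cenpe (-1.67 ± 0.44), the spindle motor Kif11 (-1.61 ± 0.41) and the cytokinesis scaffold Anln (-1.10 ± 0.27) followed. Of 35 DNA replication genes 3 were higher and 3 lower, 8.57% each, against 16.9% and 13.6% of all genes. The lower ones included the polymerase subunit Pola1 (-1.96 ± 0.48). Without the 4 libraries 1 replication gene was higher and 2 were lower. Of 19 G1 cyclins, inhibitors and Myc genes 8 were higher and 2 lower, or 3 and 4 with offsets and 5 and 2 without the 4 libraries. Cyclin D1, Ccnd1, rose (0.53 ± 0.14, and 0.30 without a call with offsets). CDK inhibitors were found among the higher genes, and both lower genes were CDK inhibitors too, Cdkn1b (-0.53 ± 0.10) and Cdkn1a, p21, which was at 52.3, 52.1, 48.6, 53.1 and 66.4 CPM and 16.7, 18.0, 30.4, 29.5 and 13.4 CPM (-1.34 ± 0.19, adjusted p = 3.65e-06).

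Of 18 circadian clock genes 8 were higher (44.4%, against 16.9% of all genes) and 3 lower (16.7%, against 13.6%), with a median of 0.77. Bhlhe41, a clock repressor, was at 24.7, 24.6, 21.8, 31.7 and 31.1 CPM and 88.4, 71.8, 132, 97.5 and 106 CPM (1.89 ± 0.16, adjusted p = 1.02e-09). The repressors Cry2 (1.40 ± 0.21) and Per2 (1.04 ± 0.18) and the output factor Tef (1.29 ± 0.18) rose, and Nfil3, which opposes Tef, fell (-0.74 ± 0.14). All of the first 4 were highest in macro-metastasis replicate 3. That library alone decided the call of Nr1d1, the repressor REV-ERB alpha, at 31.6, 32.2, 133, 33.7 and 34.4 CPM against 20.6, 24.2, 20.7, 23.5 and 25.7 CPM in tumours: the change was 1.21 ± 0.34 with it (edgeR adjusted p = 0.0073) and 0.48 without it (adjusted p = 0.129), or 0.43 without the 4 libraries (adjusted p = 0.154). The hour of collection is not given in the labels. In the retinoid and Wnt list 7 of 21 were higher (33.3%, against 16.9% of all genes) and 3 lower (14.3%, against 13.6%). Cyp26b1, which degrades retinoic acid, was at 1.81, 4.89, 3.498, 3.76 and 3.17 CPM and 24.0, 26.0, 30.8, 36.2 and 20.6 CPM (3.01 ± 0.33, adjusted p = 1.22e-07), and the ligand Wnt7a fell (-2.001 ± 0.33).

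Other large rises outside these themes were Limch1 (3.67 ± 0.29), an actomyosin regulator, the ferritin receptor Scara5 (2.39 ± 0.23), the orphan receptor Gprc5b (2.60 ± 0.28) and xanthine dehydrogenase, Xdh (1.75 ± 0.19). All 4 separated the groups, and all 4 belong to the 20 largest rises or to the genes that differed between hosts.

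To ask which of these changes depended on the host, the same comparison was made in BALB/c mice, which shares no library with that in NSG mice. There 3483 genes (19.6%) were higher and 3243 (18.2%) lower, 37.8% in all. The difference between hosts passed for 929 genes (5.23%), with the NSG change higher in 302 (1.7%) and lower in 627 (3.53%). Because NSG and BALB/c tumours were taken at different days, host and day cannot be told apart. A difference in change can lie in the tumours, the macro-metastases or both, so levels are given below for some genes. Of the 28 glucocorticoid-induced genes tested, 6 had a lower change in NSG mice, Tnfaip3 among them (difference -1.65). The 3 with a higher change were the metallothioneins Mt1 and Mt2 and the transcription factor Klf9, named here after their values were seen. For Tsc22d3, Per1 and Fkbp5 the difference was not called: Tsc22d3 changed by 2.24 ± 0.22 in BALB/c mice (difference 0.51 ± 0.29, adjusted p = 0.324), Per1 by 1.55 ± 0.23 and Fkbp5 by 1.20 ± 0.12. Hsd11b1 rose there as well (2.56 ± 0.41), whereas Hsd11b2 rose in BALB/c mice (0.80 ± 0.21) and fell in NSG mice (difference -1.67 ± 0.29, adjusted p = 0.000858).

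The replication and mitosis lists held the most differences between hosts. Of 35 replication genes 30 rose in BALB/c mice, and 24 had a lower change in NSG mice. Of 32 mitosis genes 18 rose in BALB/c mice, and 19 had a lower change in NSG mice. Over all genes 3.53% had a lower change in NSG mice. Ncaph, a condensin subunit, changed by 0.27 ± 0.14 in NSG and 1.94 ± 0.15 in BALB/c mice (difference -1.67 ± 0.21, adjusted p = 2.3e-05). For Fam83d, a spindle protein, the values were 0.34 ± 0.21 and 2.73 ± 0.23 (difference -2.40 ± 0.31, adjusted p = 2.92e-05). Neither was called in NSG mice. Cdkn1a fell in NSG and rose in BALB/c mice (0.71 ± 0.19, difference -2.04 ± 0.26, adjusted p = 2.92e-05).

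Some genes of the protease and epithelial lists had a lower change in NSG mice. Ovol1 changed by -0.85 ± 0.41 in BALB/c mice and was not called (difference -3.95 ± 0.58, adjusted p = 0.000167). It averaged 76.3 CPM in NSG and 5.15 CPM in BALB/c tumours, and 2.68 and 2.83 CPM in the macro-metastases. In all, 3 of 24 epithelial junction genes had a lower change in NSG mice. Over all genes tested that share was 3.53%. Of the metalloproteinase list 7 of 21 genes did, among them Mmp9 (difference -1.83 ± 0.34), Mmp13 (-2.30 ± 0.53) and Mmp14 (-0.87 ± 0.15), which rose in BALB/c mice (0.38 ± 0.11), together with Plau (-1.35 ± 0.25), Tnc (-2.12 ± 0.30) and Fermt1 (-1.41 ± 0.31). For Mmp10, Mmp3, Rab25, Dsg2, St14 and Epcam no difference was called. Immediate early genes were 9 higher and 3 lower in BALB/c mice, with 8 differences called, all lower in NSG mice, such as Dusp2 (-3.56 ± 0.65) and Nr4a1 (-2.21 ± 0.55). Tumours averaged 10.5 (Dusp2) and 718 CPM (Nr4a1) in NSG mice, against 1.49 and 96.7 CPM in BALB/c mice. Macro-metastases averaged 0.534 and 194 CPM in NSG mice and 0.909 and 121 CPM in BALB/c mice. Csf3 turned direction, from -1.85 ± 0.27 in NSG to 0.91 ± 0.26 in BALB/c mice (difference -2.77 ± 0.37, adjusted p = 8.46e-05). So did the TGF-beta inhibitor Smad7 (-1.54 ± 0.19), the EGF receptor ligand Hbegf (-1.499 ± 0.19) and the growth factor feedback gene Spry2 (-1.32 ± 0.16), whose fall in NSG mice was not called with GC and length offsets. Hes1, a Notch target, fell in NSG mice (-1.68 ± 0.16) and was not called in BALB/c mice (-0.005 ± 0.15). Cyr61, not called in NSG mice, rose in BALB/c mice (1.98 ± 0.23), and the difference was called (-2.29 ± 0.32, adjusted p = 9.7e-05).

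Some changes were higher in NSG mice. C4b rose by 3.33 ± 0.36 there and changed by 0.79 ± 0.32, not called, in BALB/c mice (difference 2.53 ± 0.47, adjusted p = 0.00148). It averaged 13.0 CPM in tumours and 131 CPM in macro-metastases of NSG mice, and 130 and 226 CPM in those of BALB/c mice. Masp1 (1.59 ± 0.28), Xdh (1.54 ± 0.26), Limch1 (1.71 ± 0.37), Aldoc (1.08 ± 0.26), Bhlhe41 (0.93 ± 0.22) and Tap1 (1.25 ± 0.28) showed differences in the same direction, although that of Bhlhe41 was 0.72 and not called without the 4 libraries (edgeR adjusted p = 0.0618). Tap1 did not rise in BALB/c mice (-0.31 ± 0.20, edgeR adjusted p = 0.225). The type I interferon list, 24 of 33 lower in BALB/c mice, held no called difference between hosts. MHC class II genes, 9 of 10 lower in BALB/c mice, had a higher NSG change in 3, against 1.7% of all genes. Epithelial junction genes were lower in 15 of 24 in BALB/c mice, where Epcam fell by 0.95 ± 0.23.

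**Figure D5:**
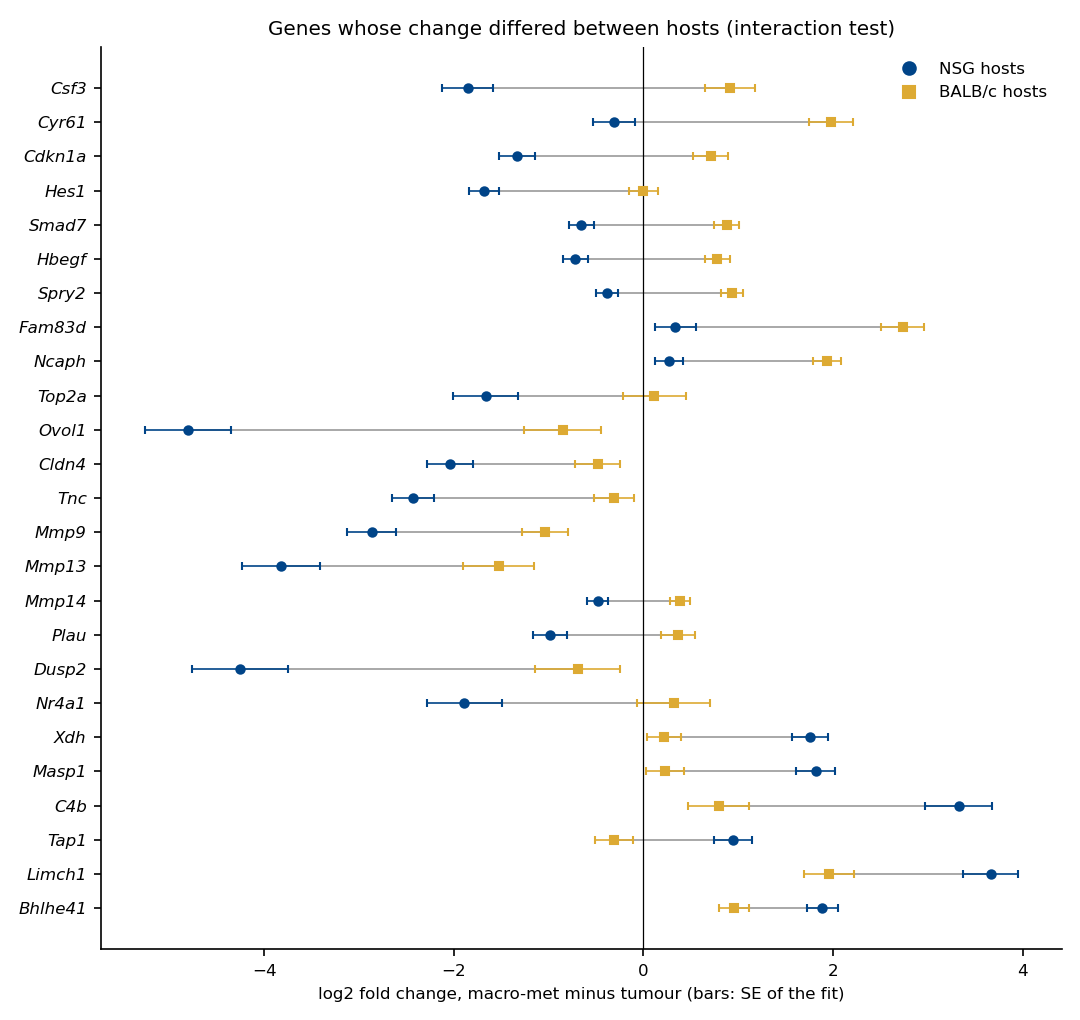
Log2 fold changes (macro-metastasis minus tumour, bars approximate SE) in NSG (circles) and BALB/c hosts (squares) for 25 genes whose change differed between hosts by the interaction test. Csf3, Cdkn1a, Smad7, Hbegf and Spry2 lie on opposite sides of 0, whereas C4b and Xdh rise further in NSG mice.

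Levels in the day 7 lung libraries from NSG mice give a further time point. Macro-metastases are shared by both comparisons, so values are set side by side, and 43.7% of genes were called between day 7 and macro-metastasis. With GC and length offsets, 2857 higher and 4523 lower calls replaced 3778 and 3987. Rank correlations of a library's deviations with GC content were -0.594 to -0.311 at day 7. They were -0.201 to 0.035 in tumours and 0.19 to 0.40 in macro-metastases. The levels below carry no such offsets, and the part of GC content in them was not tested. Tsc22d3 averaged 59.3 CPM in tumours, 106 at day 7 and 398 in macro-metastases, and Hsd11b1 3.61, 5.64 and 28.4 CPM. Nr3c1 was highest at day 7, at 48.9 CPM between 20.0 and 14.9 CPM. Lbp averaged 74.2 CPM in tumours, 17.5 at day 7 and 655 in macro-metastases. Mmp9 was still at 403 CPM at day 7, near the 427 CPM of tumours, and at 58.6 CPM in macro-metastases. Ovol1 stood between its levels in the other groups, at 33.6 CPM. Top2a was at 502 CPM at day 7, above both tumours (131 CPM) and macro-metastases (41.4 CPM).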

How the data were processed

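Messenger RNA of sorted 4T1-tdTomato cells was sequenced, and the authors deposited raw counts per gene and TPM values for 30 libraries. Per the submitters' processing notes, Trimmomatic 0.36 and STAR 2.5.2b were used with GRCm38/mm10. The counting tool, strand setting and annotation are not given in the sources used here, so antisense and overlapping genes cannot be told apart.

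The deposited counts held 49315 genes, 49056 of them with an ID in GENCODE M21, which gave positions, lengths and GC content. After filterByExpr by group, 17774 genes (99.969% of counts) were fitted in all 30 libraries with edgeR 4.0.16 (R 4.3.3): TMM, 1 mean per group, robust quasi-likelihood F tests, 24 residual degrees of freedom, Benjamini-Hochberg adjustment, called at 0.05. In simulated counts of 17467 genes, each gene had 1 mean in all groups, except genes changed by a known fold in NSG macro-metastases. Of these, drawn from genes above a low CPM cutoff, 42 of 50 raised 2-fold and 38 of 50 lowered 2-fold were recovered. At 4-fold 49 and 48 of 50 were recovered. The simulation built in no GC trend and changed few genes, so recovery in the real data can differ. Precision follows the spread between libraries, since total counts of 29832098 or more leave little counting error in genes of several CPM, whereas genes at a fraction of 1 CPM, such as Dusp2 and Nr4a3 in macro-metastases and Sftpc in tumours, rest on few reads. The authors' TPM values entered alternatives (limma 3.58.1 on log2(TPM + 1) and log2(TPM + 0.1)) and the ranking of abundant transcripts only.

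The members, the 33 programme and 10 marker lists and the rule for named genes were chosen with earlier results of these data known, so counts over lists are descriptions and were not tested as sets. The rule took the 5 genes of the glucocorticoid and Fas axis and Hsd11b1, the 20 largest rises and falls at a mean log2 CPM of at least 3 without overlap, the best called members of each list, the clearest host differences and the most abundant genes. Of the 426 genes it took, 138 are described, picked after their values were seen. Of 879 list entries written, 830 were tested. Marker lists were compared by exact permutation of mean log2 CPM (prior count 2) over 5 against 5 libraries, adjusted over 10 lists. Motifs were sought in 250 bases upstream of RefSeq starts (27025 windows, GRCm38.p6). Alternatives were other scaling, filters, tests (DESeq2 1.42.0, limma voom), TPM scales, GC and length offsets (spline with 5 degrees of freedom), only the compared groups, subsets of macro-metastases by title number and each library left out, and, chosen after seeing the data, 4 libraries left out together.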

Additional observations from a re-analysis of the deposited data

Results flagged for a closer look

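In 12 of 100 groups of 5 libraries checked, 1 library lay far from the other 4 by Dixon's criterion. Chance flags about 1 in 20 groups. Macro-metastasis replicate 3 was the highest of its group in 4 marker sums: epidermis (303 CPM), skeletal muscle (403 CPM), normal mammary epithelium (204 CPM) and T, B and NK cell markers (2.71 CPM). Macro-metastasis replicate 4 was the highest in red cell markers (78.1 CPM) and in Saa3 (46.5 CPM). Among tumours, replicate 1 was the highest for Tsc22d3 (65.3 CPM) and Adm (6.14 CPM), and replicate 5 for Cdkn1a (66.4 CPM). Replicate 2 was the lowest tumour for Mmp13 (7.35 CPM) and Ccl2 (4.92 CPM), and replicate 3 for Top2a (93.9 CPM).

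For 35 of the genes described, the change from tumour to macro-metastasis differed between NSG and BALB/c hosts by the interaction test (edgeR, adjusted p under 0.05 over all genes). Values are the NSG minus the BALB/c log2 change. The genes of proteases, adhesion and matrix were Mmp9 (-1.83), Mmp13 (-2.30), Mmp14 (-0.87), Plau (-1.35), Tnc (-2.12), Fermt1 (-1.41), Cldn4 (-1.56) and Ovol1 (-3.95). Those of cell division were Cdkn1a (-2.04), Ncaph (-1.67), Fam83d (-2.40) and Top2a (-1.78). Immediate early, NF-kB and cytokine genes were Nr4a1 (-2.21), Dusp2 (-3.56), Atf3 (-1.80), Tiparp (-1.71), Tnfaip3 (-1.65), Nfkbie (-1.11) and Csf3 (-2.77). Other lower changes in NSG mice were those of Hes1 (-1.68), Smad7 (-1.54), Spry2 (-1.32), Hbegf (-1.50), Cyr61 (-2.29), Nt5e (-0.98), Nfil3 (-0.96) and Hsd11b2 (-1.67). The higher changes were those of C4b (2.53), Masp1 (1.59), Xdh (1.54), Limch1 (1.71), Tap1 (1.25), Aldoc (1.08), Bhlhe41 (0.93) and Bcl2l1 (0.72). Without the 4 libraries with epidermis and muscle RNA, 3 of these were not called (edgeR): Bhlhe41 (0.72, adjusted p = 0.0618), Top2a (-1.73, adjusted p = 0.0655) and Bcl2l1 (0.51, adjusted p = 0.197). With each of 20 libraries left out in turn, 31 of the 35 kept their call throughout. Tnfaip3 lost it without BALB/c macro-metastasis replicate 4 (-1.4, edgeR adjusted p = 0.0649). Top2a lost it without that library or BALB/c tumour replicate 5 (-1.62 to -1.52, edgeR adjusted p up to 0.0556). Bcl2l1 lost it in 9 fits, without NSG tumour replicates 1 or 2, NSG macro-metastasis replicates 3 or 4, BALB/c tumour replicates 3 or 4 or BALB/c macro-metastasis replicates 1, 4 or 5 (0.61 to 0.7, edgeR adjusted p up to 0.0811). Atf3 lost it in 11 fits, without NSG tumour or macro-metastasis replicates 1, 4 or 5, BALB/c tumour replicates 1, 2 or 3 or BALB/c macro-metastasis replicates 2 or 4 (-1.81 to -1.56, edgeR adjusted p up to 0.0852).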

How the results depend on the processing

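No called gene described above reversed under any alternative run: of 133 called genes, 118 kept their call in every setting, and of 35 host differences 25 did. The offsets ended 3 calls, leaving out the 4 libraries ended 2, and using only macro-metastases of title number 100 ended 14. The 5415 calls became 2649 (1446 higher, 1203 lower) with only those 2 macro-metastases, and 4521 to 5063 with 1 library left out. The 929 host differences became 1596 (735 higher, 861 lower) with DESeq2 and 365 (63 higher, 302 lower) with title number 100 only. Among marker lists (exact permutation, 2-sided), fibroblast markers passed on log2(TPM + 1) (0.65, adjusted p = 0.0159) and without tumour replicate 3 (1.30, adjusted p = 0.0265). Without macro-metastasis replicate 3, T, B and NK (-0.83), skeletal muscle (-1.57) and mammary epithelium markers (-0.90) passed (exact permutation, adjusted p = 0.0198 each). The adipocyte difference was 0.057 on log2(TPM + 1) and 0.067 to 0.19 without tumour replicates 2 or 3 or macro-metastasis replicates 1 or 5. With 1 library left out at a time, the mean log2 differences ranged from 0.85 to 1.30 for fibroblast, -0.83 to -0.23 for T, B and NK, -0.42 to 0.19 for adipocyte, -1.57 to -0.43 for skeletal muscle and -0.90 to -0.42 for mammary epithelium markers. The cause of these shifts was not tested. The marker test without the 3 NSG libraries was not run, since 3 against 4 cannot give p under 0.0571. No paired analysis was possible because replicate numbers follow accession order and pair nothing. Interpretation is limited by 1 title number for all tumours and by site, route, dose and day changing together.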

Other observations

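The remaining lists were these. Of 21 integrated stress and amino acid response genes 5 were higher (23.8%, against 16.9% of all genes) and 3 lower (14.3%, against 13.6%) in NSG macro-metastases. Without the 4 libraries with epidermis and muscle RNA 1 was higher and 5 were lower. Of 15 abundant long non-coding RNAs 1 was higher (6.67%) and 3 lower (20.0%), or 0 and 3 without those libraries. In BALB/c mice 1 was higher and 11 lower, and 3 had a higher change in NSG mice by the interaction test, against 1.7% of all genes.

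Marker lists that did not pass between NSG macro-metastases and tumours were those of T, B and NK cells (mean log2 difference -0.46, exact permutation, adjusted p = 0.362), adipocytes (-0.08, adjusted p = 0.921), skeletal muscle (-0.83, adjusted p = 0.362) and normal mammary epithelium (-0.61, adjusted p = 0.238). Macro-metastases of title number 98 alone gave 3764 calls and those of title number 100 alone 2649, from 3 and 2 libraries.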
